A study of Mus musculus with 15 samples.

Results

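The genes described here encode the protein parts of the major spliceosomal small nuclear ribonucleoproteins (snRNPs) and of the Sm-like LSm rings. They were chosen by symbol from a fixed list of 33 names, and all 33 were found once each among the 36144 genes of the deposited table. The list holds 8 Sm core proteins, 3 proteins specific to U1, 2 specific to U2, 8 LSm proteins, 2 LSm proteins specific to U7, 5 proteins specific to U5 and 5 of the U4/U6 and tri-snRNP particles. All 33 were above 1 TPM (transcript level per 1000000 transcripts) in every library, and all 33 passed the filter on low values.

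The study profiled lumbar L1-L3 motor neurons of 6-day-old mice on an FVB background, labelled with cholera toxin subunit B and cut out by laser capture. Amplified poly(A) RNA was sequenced in 15 libraries, 3 for each of 5 groups, with males and females in equal proportion. WT libraries came from littermates of genotype Smn+/+;SMN2;SMNdelta7 given vehicle, and SMA libraries from Smn-/-;SMN2;SMNdelta7 mice given vehicle. Spinal muscular atrophy (SMA) mice of that same genotype also received 5 mg/kg MW150, 2.2 mg/kg Pifithrin-alpha or 3 mg/kg SMN-C3, each injected daily into the peritoneum from birth (day 0). MW150 is an inhibitor of the kinase p38, Pifithrin-alpha an inhibitor of p53, and SMN-C3 a modifier of SMN2 splicing. All mice, WT included, carried the SMN2 and SMNdelta7 transgenes, whose human transcripts were not analysed here. The labels call the libraries biological replicates without naming the animals behind each, and a captured sample averages many cells, so fewer cells of a type and less RNA per cell cannot be told apart.

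Rings of Sm proteins are loaded onto the U1, U2, U4 and U5 snRNAs in the cytoplasm by the SMN complex, and the particle then returns to the nucleus, where it recognises and removes introns. An LSm2-8 ring sits on U6 snRNA, an LSm1-7 ring acts in cytoplasmic mRNA decay, and in the U7 particle Lsm10 and Lsm11 take the places of the D1 and D2 Sm proteins for histone pre-mRNA processing. Loss of SMN in SMA is known to lower snRNP assembly in the spinal cord.

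The mouse Smn1 gene checked the labels: it was listed at 8.97 to 23.3 TPM in the WT libraries and at 0 to 1.5 TPM in the 12 libraries of SMA genotype. Mitochondrial genes took 21.9% of TPM in WT replicate 1, 20.4% in SMA+Pifithrin-alpha replicate 3, 12.6% in SMA+Pifithrin-alpha replicate 2 and 11.3% in SMA+SMN-C3 replicate 1, against 3.76% to 7.55% elsewhere. The libraries WT 1 and SMA+Pifithrin-alpha 3 stood apart for the members too. Differences that moved by more than 1.5 times or changed sign without both are given that way as well in the comparison of SMA with WT. Motor neuron markers (10 genes) summed to between 10298 and 17770 TPM with none at 0 in any group. Microglial markers (9 genes, none at 0) summed to 42.1 to 77.3 TPM in WT and 143 to 165 TPM in SMA, 108 to 138 TPM with MW150, 62.7 to 115 TPM with Pifithrin-alpha and 75.2 to 95.2 TPM with SMN-C3, with all 9 higher in SMA than in WT. Astrocyte markers (8 genes, none at 0) summed to 747 to 1461 TPM in WT, 1351 to 1839 TPM in SMA, 1421 to 1773 TPM with MW150, 752 to 1472 TPM with Pifithrin-alpha and 1342 to 1558 TPM with SMN-C3, with all 8 higher in SMA than in WT. Oligodendrocyte lineage markers (8 genes, none at 0) summed to 705 to 2180 TPM in WT, 869 to 4478 TPM in SMA, 970 to 6298 TPM with MW150, 469 to 1385 TPM with Pifithrin-alpha and 627 to 1913 TPM with SMN-C3, with 7 of 8 higher in SMA than in WT. Red blood cell markers (5 genes) summed to 676.5 to 2261 TPM in WT and 788 to 3548 TPM in SMA, with all 5 higher in SMA. In the treated groups they summed to 840 to 1943 TPM with MW150, 531 to 1318 TPM with Pifithrin-alpha and 300 to 1651 TPM with SMN-C3. The part of these markers in the results was not tested.

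The levels of the members spanned a factor of 239 when averaged over the 15 libraries. Snrpn, the neuronal and imprinted copy of the SmB protein gene, was the most abundant at a mean of 1433 TPM and made up 22.5% to 33.1% of the summed TPM of all members. Snrpe, which encodes the ring protein SmE, came next with 501 TPM, followed by Lsm7 with 408 TPM. At the low end stood Prpf4 (6.01 TPM), a U4/U6 protein, Snrnp200 (11.7 TPM), the helicase that unwinds U4 from U6, and Prpf3 (15.1 TPM), a further U4/U6 protein. Across libraries the members' coefficients of variation ran from 8.7% for Snrnp27 to 66.9% for Snrpb2, with a median of 24.4%.

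In SMA motor neurons, 1 of the 33 members passed the test against WT (limma, adjusted p under 0.05), beside 0.363% of the 15425 genes tested: Snrpa1, which encodes the U2 protein A′, rose. The other members were mostly somewhat higher. Positive log2 differences were found for 26 members and negative ones for 7, with a median of 0.38, while the median of all genes tested was itself 0.24 and 66.5% of them were positive. Without the 2 libraries of high mitochondrial share the members' median was 0.24, with 27 higher and 6 lower, and that of all genes 0.12. With all 15 libraries, 23 members lay above the all-gene median of 0.24 and 10 below. At an unadjusted p under 0.05 there were 11 members, 10 higher and 1 lower, beside 13.5% of all genes tested and 10.6% for higher alone. The plot of changes in SMA shows each member's difference with its interval.

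**Figure D1:**
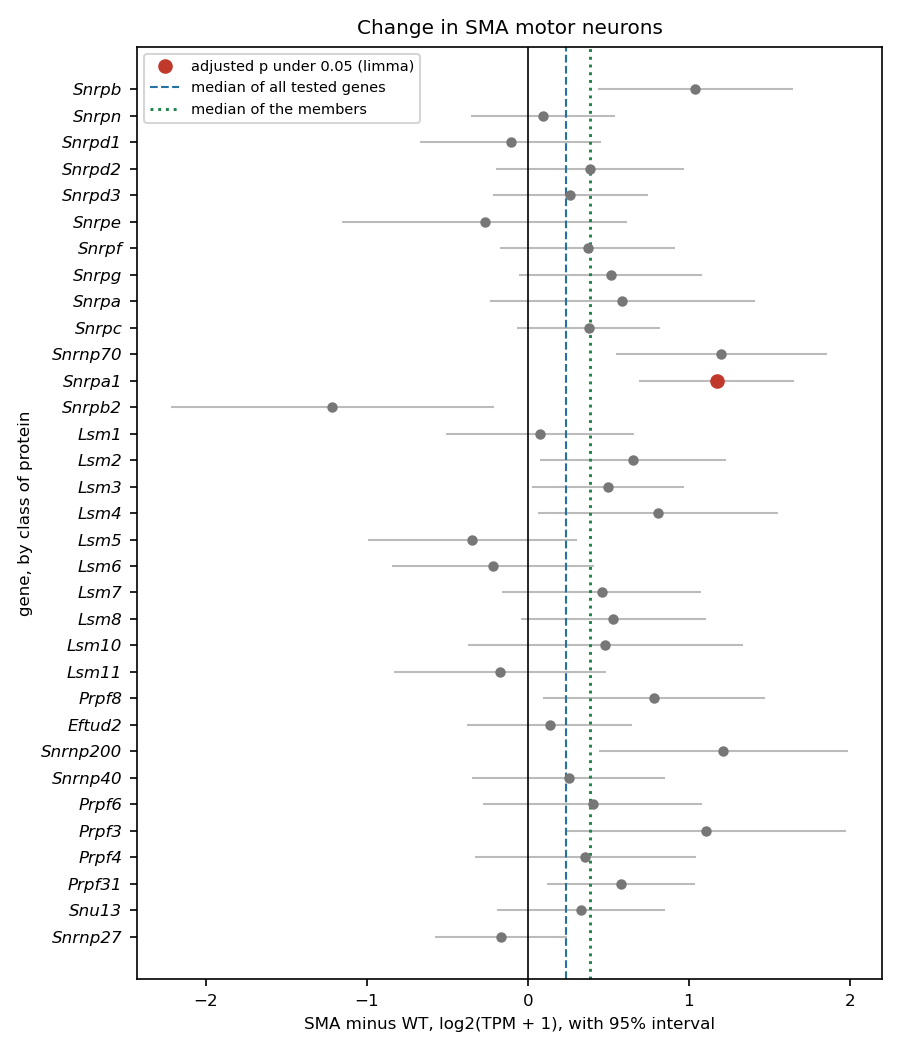
Difference between SMA and WT (x axis, SMA minus WT on the log2(TPM + 1) scale) for each of the 33 members (y axis, grouped by class), n = 3 libraries a group; points are limma estimates and bars 95% intervals. Snrpa1 (1.17, red) is the one member past the adjusted threshold, and the dashed and dotted lines mark the medians of all tested genes (0.24) and of the members (0.38).

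Scaling moved these values together. With median-of-ratios scaling the median of all genes was 0.04 and that of the members 0.14, with 23 members higher and 10 lower. With quantile normalization the medians were 0.01 and 0.18, again with 23 higher and 10 lower. The 3 SMA libraries lay above all 3 WT libraries for 13 members, beside 14.5% of all genes tested, and below them for 1 member, Snrpb2, beside 3.81%.

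Snrpa1 (ENSMUSG00000030512.13) lies on the plus strand at chr7:66059003-66074587 of GRCm38. Its product binds stem-loop IV of U2 snRNA together with U2 B″, the product of Snrpb2. In WT libraries its gene level was 68.9, 63.4 and 72.8 TPM. In SMA libraries it was 191, 122 and 159 TPM. The treated SMA mice had 158, 165 and 146 TPM with MW150, 159, 143 and 188 TPM with Pifithrin-alpha, and 123, 147 and 178 TPM with SMN-C3. All 12 libraries of SMA genotype were above all 3 WT libraries, and the treated and vehicle SMA ranges overlapped. A separation of all 12 from all 3 in this direction was found for 1 of the 33 members and for 0.558% of the genes tested.

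The log2 difference of Snrpa1 between SMA and WT was 1.17 ± 0.23 (SE, limma, adjusted p = 0.030). With Pifithrin-alpha the difference from WT was 1.24 (adjusted p = 0.042), with MW150 1.18 (adjusted p = 0.053) and with SMN-C3 1.10 (adjusted p = 0.20), so the first alone of these treated groups passed the test. Members passing numbered 1 of 33 for Pifithrin-alpha against WT (background 0.117%), 0 for MW150 against WT (background 0.143%) and 0 for SMN-C3 against WT (background 0.0194%). Against vehicle SMA the differences were 0.011 with MW150 (95% interval -0.47 to 0.49), 0.064 with Pifithrin-alpha (-0.42 to 0.55) and -0.071 with SMN-C3 (-0.55 to 0.41), none past the test.

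The call on the gene level depended on single libraries. In SMA against WT the limma adjusted p stayed under 0.05 without SMA replicate 2 (0.031) and was above it without any one of WT replicate 1 (0.057), WT replicate 2 (0.10), WT replicate 3 (0.059), SMA replicate 1 (0.23) and SMA replicate 3 (0.091), with log2 differences between 1.02 and 1.34. Median-of-ratios scaling gave 0.92 (adjusted p = 0.23) and quantile normalization 0.97 (adjusted p = 0.083). Without both libraries of high mitochondrial share it was 1.18 (adjusted p = 0.0091, background 0.571%). The call for Pifithrin-alpha against WT was lost without any 1 of its 6 libraries, and without both those of high mitochondrial share it was 1.14 (adjusted p = 0.052).

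Counting only transcripts annotated as coding gave a larger difference. The coding transcript Snrpa1-206 stood at 51.5, 46.9 and 48.1 TPM in the WT libraries and at 184, 119 and 158 TPM in those of SMA. It was 152, 154 and 133 TPM with MW150, 148, 130.1 and 185 TPM with Pifithrin-alpha, and 120.1, 143 and 173 TPM with SMN-C3. The lowest library of SMA genotype was above the highest WT library by more than the whole WT range. On coding TPM, a choice made after the transcript values had been seen, Snrpa1 rose in SMA by 1.61 log2 (limma adjusted p = 0.0025, background 0.411%). It also rose against WT with MW150 by 1.56 (adjusted p = 0.0054, background 0.147%), with Pifithrin-alpha by 1.62 (adjusted p = 0.0067, background 0.132%) and with SMN-C3 by 1.54 (adjusted p = 0.016, background 0.0441%).

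The transcripts Snrpa1-201 and Snrpa1-204 differ from the coding one at exon 6. Snrpa1-204 also runs past the next-to-last exon of Snrpa1-206 into the intron and lacks its last exon. A difference in the level of Snrpa1-204 therefore cannot be placed at exon 6 alone. Exon 6 of the 9 exons of Snrpa1-206 spans chr7:66070119-66070198 (80 bases, not a multiple of 3), between introns of 592 and 391 bases. It is shown first with 20 bases of intron on each side, since the transcripts compared here differ there, with the exon in capitals. The second line joins exon 5 to exon 6 as in Snrpa1-206, with the first 15 bases of exon 6 in capitals. The third joins exon 5 to exon 7 as in Snrpa1-201, annotated as a target of nonsense-mediated decay (NMD), with a stop codon in capitals that follows the junction after 3 bases and leaves an open frame of 154 codons in place of 255.
Snrpa1 exon 6 with flanks: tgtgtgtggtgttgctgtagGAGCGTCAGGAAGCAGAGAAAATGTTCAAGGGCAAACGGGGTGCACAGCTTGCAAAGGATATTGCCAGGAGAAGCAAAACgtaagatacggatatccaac
Snrpa1-206 exon 5 to exon 6: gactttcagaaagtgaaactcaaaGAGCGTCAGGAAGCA
Snrpa1-201 exon 5 to exon 7: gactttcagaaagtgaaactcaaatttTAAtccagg

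Snrpa1-204, annotated as a retained-intron transcript, keeps both introns around that exon in 1 continuous exon of 1242 bases (chr7:66069424-66070665). It was listed at 11.8, 6.14 and 14.4 TPM in the WT libraries and at 0.985, 2.55 and 1.32 TPM in those of SMA. Snrpa1-201, the transcript that skips exon 6, was at 0, 8.52 and 9.67 TPM in the WT libraries and at 3.14, 0 and 0.235 TPM in those of SMA. WT and SMA did not overlap for the retained-intron transcript and overlapped for the skipping one.

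As a share of the gene's TPM, Snrpa1-206 made up 74.7%, 74% and 66.1% in WT and 96.5%, 96.9% and 98.8% in SMA. With MW150 its share was 96.3%, 93.3% and 91.1%, with Pifithrin-alpha 92.9%, 91.1% and 98.4%, and with SMN-C3 98%, 97.5% and 97.1%. Every library of SMA genotype had a higher coding share than every WT library. The share rose by 25.8 percentage points in SMA (95% interval 20.5 to 31.2, limma adjusted p = 0.0066). Of 107 member transcripts tested in 29 members this was the 1 that passed, beside 0.093% of the 33351 transcripts tested.

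The coding share also rose against WT with MW150 by 22 points (limma adjusted p = 0.013, background 0.066%), with Pifithrin-alpha by 22.5 points (0.023, background 0.018%) and with SMN-C3 by 25.9 points (0.0066, background 0.018%). In each of these 4 comparisons with WT, which share the WT libraries, it was the only member transcript to pass. Leaving out any 1 library kept the SMA, Pifithrin-alpha and SMN-C3 calls, with adjusted p up to 0.021, 0.033 and 0.042, while for MW150 the call was lost without MW150 replicate 1 (0.063) or replicate 2 (0.058). On an arcsine scale the MW150 and Pifithrin-alpha calls were lost (0.082 and 0.070), as was the Pifithrin-alpha call with a replicate block (0.085). Against vehicle SMA the differences were -3.85 points with MW150 (95% interval -9.21 to 1.51), -3.3 with Pifithrin-alpha (-8.66 to 2.07) and 0.092 with SMN-C3 (-5.27 to 5.46), and 0 of the 107 member transcripts passed, beside backgrounds of 0.018%, 0.03% and 0.006%.

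The share of the retained-intron transcript Snrpa1-204 was lower in SMA by -14.4 points (limma adjusted p = 0.051), and that of Snrpa1-201 by -8.31 points (adjusted p = 0.40), neither past the test. In each of the 4 comparisons with WT, leaving out WT replicate 2 brought Snrpa1-204 past it, and leaving out WT replicate 1, in which Snrpa1-201 was listed at 0, brought Snrpa1-201 past it. Of 26 member transcripts of the retained-intron class, those of Snrpa1 included, 18 had a lower share in SMA, with a median of -0.67 points, while 54.6% of all 7231 tested transcripts of that class were lower, with a median of -0.18 points. Retained-intron transcripts of all genes took 4.24% to 7.93% of non-mitochondrial TPM in WT, with the highest value in WT replicate 1, and 3.7% to 5.17% in SMA. They took 5.3% to 5.77% with MW150, 4.97% to 5.88% with Pifithrin-alpha and 3.38% to 3.57% with SMN-C3. Snrpa1 overlaps Gm45213 on the same strand, with which Snrpa1-206 shares 9.77% of its 31-base words, and Gm45213 was listed at no more than 0.238 TPM.

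**Figure D2:**
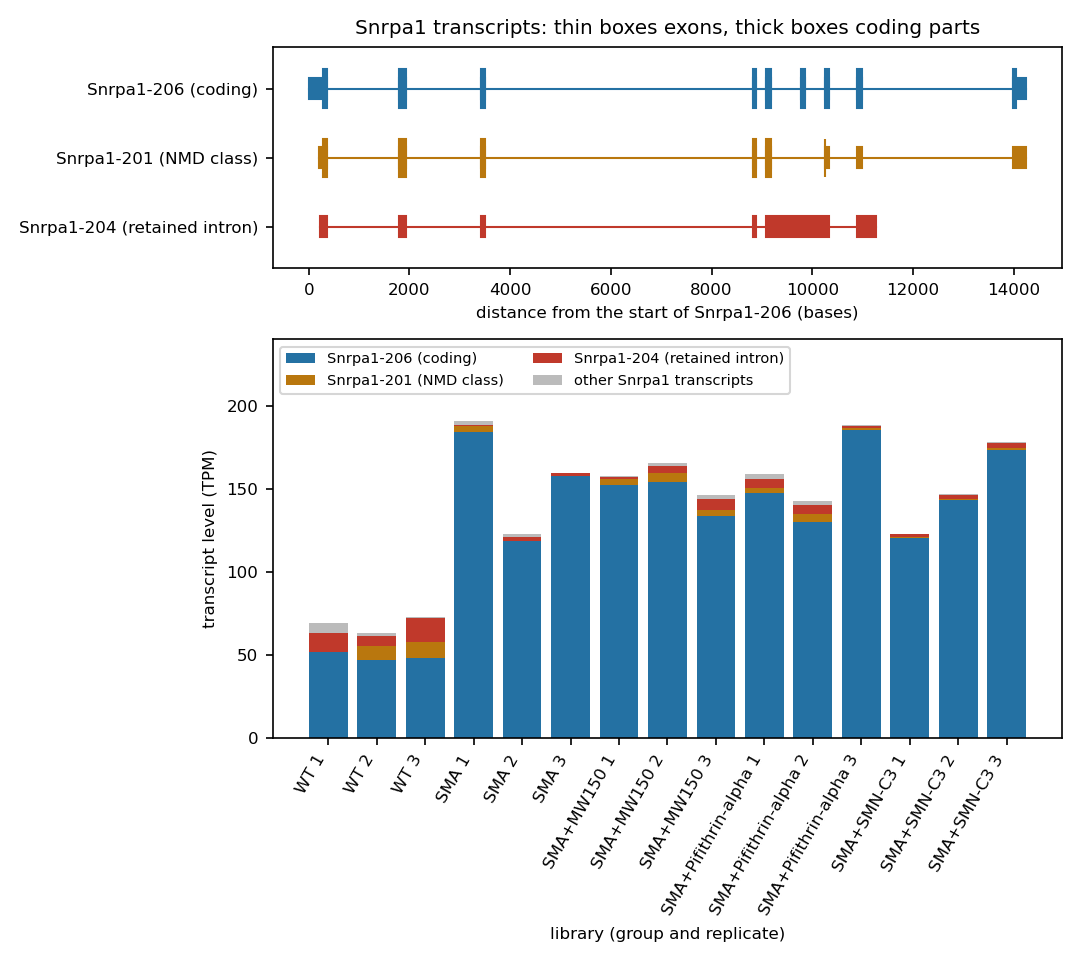
Top, exons (thin boxes) and coding parts (thick boxes) of 3 Snrpa1 transcripts against distance in bases from the start of Snrpa1-206. Bottom, TPM of each transcript stacked by library; coding Snrpa1-206 is 46.9 to 51.5 TPM in the 3 WT libraries and 119 to 185 TPM in the 12 libraries of SMA genotype.

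Snrpb2, which encodes U2 B″, had a negative difference in SMA that did not pass the test and that lay mostly in a non-coding transcript. Its gene level was 439, 144 and 121 TPM in WT libraries and 85, 88.9 and 79.9 TPM in SMA ones, so WT lay above SMA throughout and 1 WT library was far above the rest. The log2 difference was -1.21 (limma adjusted p = 0.32); without the 2 libraries of high mitochondrial share it was -0.64 (adjusted p = 0.58).

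Most of that signal came from Snrpb2-203, a 594-base model of the retained-intron class on the plus strand of chromosome 2. It shares its exons with coding Snrpb2-201 apart from the last 140 bases of the first intron (chr2:143064402-143064541), printed here as the stretch of Snrpb2-203 that Snrpb2-201 lacks.
Snrpb2-203 intron part: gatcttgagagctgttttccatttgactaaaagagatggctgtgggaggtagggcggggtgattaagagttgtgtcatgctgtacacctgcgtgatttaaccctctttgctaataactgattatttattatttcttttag
Snrpb2-203 was listed at 393, 103 and 67.7 TPM in WT, at 37.6, 50.4 and 37.9 TPM in SMA, and at 37.1, 159 and 224 TPM with Pifithrin-alpha. Its 4 highest libraries were WT 1, SMA+Pifithrin-alpha 3, SMA+Pifithrin-alpha 2 and SMA+SMN-C3 1 (143 TPM), which are the 4 with the highest mitochondrial share; its part in this level was not tested. Coding Snrpb2-201 was 46, 39.6 and 42.6 TPM in WT, 36.3, 25.7 and 30 TPM in SMA, and at most 60.6 TPM in any library. Of the 31-base words of Snrpb2-203, 22.5% occur in other genes. Summed over coding transcripts, the log2 difference of Snrpb2 in SMA was -0.23 (limma adjusted p = 0.67).

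**Figure D3:**
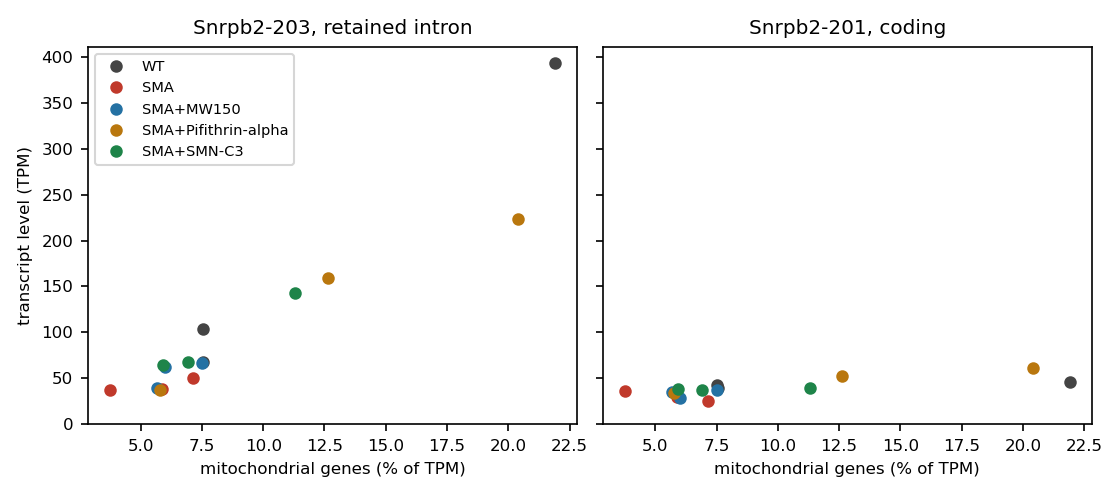
TPM of the retained-intron transcript Snrpb2-203 (left) and the coding transcript Snrpb2-201 (right) against the percentage of TPM from mitochondrial genes, 1 point a library, coloured by group. Snrpb2-203 is at 393 TPM in the library with 21.9% mitochondrial TPM, while Snrpb2-201 stays between 25.7 and 60.6 TPM.

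The 3 U1-specific genes were all higher in SMA than in WT with no overlap of libraries, and none passed the test. Beside them stand 14.5% of all genes tested with SMA above WT throughout and a median of 0.24. Snrnp70, which encodes the U1-70K protein that binds the first stem-loop of U1 snRNA, lies on the minus strand at chr7:45376453-45395742. It was at 26.3, 44.6 and 44 TPM in the WT libraries and at 88.4, 86.7 and 85.8 TPM in those of SMA. The SMA libraries lay close together and above every WT library. With MW150 it was 106, 99.1 and 89.7 TPM, all above the SMA libraries. With Pifithrin-alpha it was 89.9, 62.5 and 37 TPM, and with SMN-C3 38.5, 57.5 and 63.8 TPM, ranges that run from WT levels upward.

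The log2 difference of Snrnp70 in SMA was 1.20 ± 0.31 (SE, limma adjusted p = 0.14). Without the 2 libraries of high mitochondrial share it was 0.96 (adjusted p = 0.063). Against WT, MW150-treated libraries differed by 1.37 (adjusted p = 0.13), and without those 2 libraries Snrnp70 passed the test there (1.13, adjusted p = 0.037, background 0.272%), as the second member beside Snrpa1. Against vehicle SMA, SMN-C3 libraries differed by -0.73 (95% interval -1.38 to -0.07, adjusted p = 0.54), the second most negative value among members in that comparison. The main coding transcript Snrnp70-201 shares no 31-base word with another gene.

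Snrpa, the gene of the U1 protein A that binds the second U1 stem-loop, was at 35.6, 62.7 and 66.1 TPM in WT libraries and 76.3, 82.5 and 81.2 TPM in SMA ones (log2 difference 0.59, limma adjusted p = 0.47, and 0.31 without the 2 libraries of high mitochondrial share). In SMA+Pifithrin-alpha 3 it was at 17.6 TPM, its lowest level. Snrpc, whose product U1-C steadies pairing with the 5′ splice site, was at 72.8, 98.8 and 84.4 TPM in WT libraries and 105, 113 and 113 TPM in SMA ones (0.38, adjusted p = 0.42). Of the 31-base words of their main transcripts, 50.8% for Snrpa and 40.7% for Snrpc occur in other genes as well, so the split of reads is uncertain for both.

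**Figure D4:**
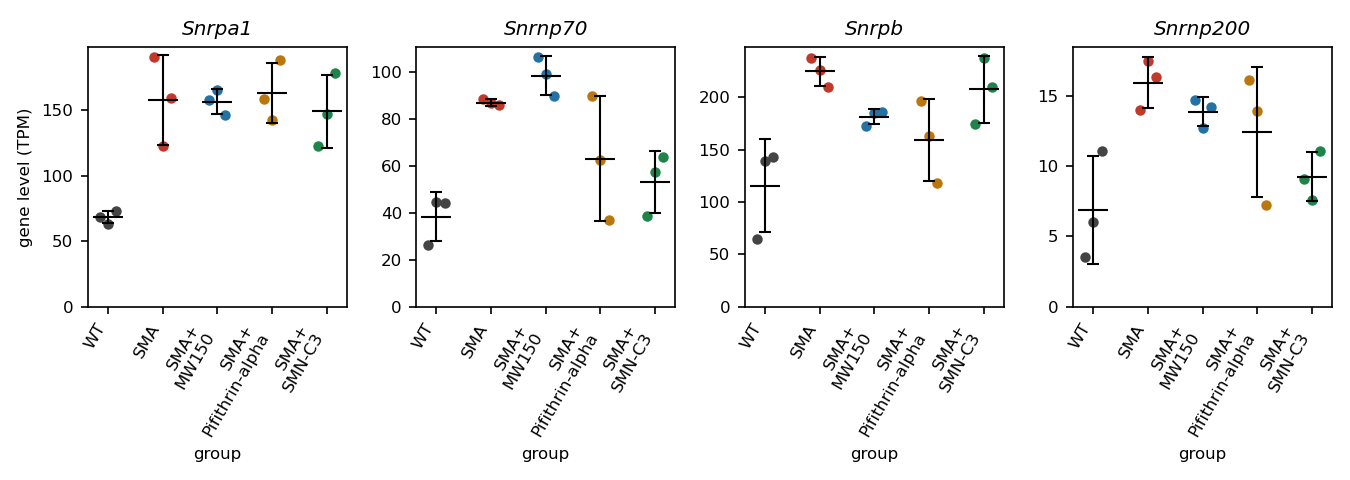
Gene level (y axis, TPM) of Snrpa1, Snrnp70, Snrpb and Snrnp200 in each of the 5 groups (x axis); dots are libraries, dashes and bars the mean and SD of 3. Snrpa1 is above the WT range in all treated SMA libraries. With Pifithrin-alpha, Snrnp70 and Snrnp200 reach down to WT levels only in replicate 3, a library of high mitochondrial share. With SMN-C3, Snrnp70 does so in replicate 1 and Snrnp200 in all 3 replicates.

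Among the 8 Sm core genes, 6 had positive differences in SMA, with a class median of 0.32, and 0 passed the test. Snrpb, which encodes SmB and SmB′, was the one whose SMA libraries all lay above WT. It was at 64.1, 139 and 143 TPM in WT libraries and 238, 226 and 209.9 TPM in SMA ones. Treated libraries ran from 118 TPM (SMA+Pifithrin-alpha 3) to 238 TPM (SMA+SMN-C3 2). The log2 difference was 1.04 in SMA (limma adjusted p = 0.17) and 0.67 without the 2 libraries of high mitochondrial share (adjusted p = 0.091). Coding transcripts made up 90.2% to 98.7% of its TPM in WT and 98.6% to 99.2% in SMA. With MW150 the log2 difference was -0.31 against vehicle SMA (adjusted p = 1), and the MW150 libraries (173, 185 and 186 TPM) lay below all SMA libraries.

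Snrpn, whose protein SmN takes the place of SmB in neurons, overlapped between the groups: it was at 1031, 1398 and 1579 TPM in WT libraries and 1408, 1264 and 1564 TPM in SMA ones (0.10, 95% interval -0.35 to 0.54, limma adjusted p = 0.83). Without the 2 libraries of high mitochondrial share the sign turned (-0.079). The ratio of Snrpn to Snrpb TPM was 16.1, 10 and 11.1 in WT and 5.93, 5.59 and 7.45 in SMA. In treated SMA libraries it ran from 6.85 to 12.8. Ratios in WT and SMA did not overlap, and the highest ratios of their groups were in WT 1 and SMA+Pifithrin-alpha 3. Snrpn-201 shares 32.2% of its 31-base words with other genes, Snurf among them, which was listed at 0 in every library, so the split of reads between them is uncertain.

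Snrpe overlapped between WT and SMA and was highest where the mitochondrial share was. It was at 767, 358 and 348 TPM in WT, 415, 389 and 339.5 TPM in SMA, 326, 636 and 1399 TPM with Pifithrin-alpha and 694, 412 and 381 TPM with SMN-C3. Its 4 highest libraries were the 4 of highest mitochondrial share, whose part in this level was not tested. Its log2 difference in SMA was -0.27 (limma adjusted p = 0.75) and changed sign to 0.10 without the 2 highest of them. Part of its reads may belong to copies elsewhere. Of the 31-base words of Snrpe-204, its main coding transcript, 41.2% occur in other genes, as do 26.8% of those of Snrpe-201.

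The other ring genes, Snrpd1, Snrpd2, Snrpd3, Snrpf and Snrpg, had differences between -0.11 (Snrpd1) and 0.51 (Snrpg) in SMA, with no limma adjusted p under 0.40. Without the 2 libraries of high mitochondrial share Snrpg differed by 0.20, Snrpd2 by 0.14 in place of 0.39, Snrpd3 by 0.078 in place of 0.27 and Snrpd1 by -0.016. Snrpg was at 87, 189 and 147 TPM in WT libraries and 192, 198 and 187 TPM in SMA ones. With Pifithrin-alpha it was 136, 120.4 and 122 TPM and with SMN-C3 126, 172 and 100.1 TPM, below every SMA library in both cases. Neither difference from SMA, -0.61 and -0.57, passed the test (adjusted p = 0.46 and 0.58). Coding transcripts of Snrpg alone were at 61, 59.4 and 57 TPM in SMA. With SMN-C3 they overlapped these values (55.7, 58.2 and 44.8 TPM), and with Pifithrin-alpha they lay below (52.5, 49.2 and 31 TPM). For Snrpf-201, 75.5% of the 31-base words occur in other genes.

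The 8 LSm genes had a median difference of 0.48 in SMA, with 6 positive and 0 past the test. Lsm2, Lsm3 and Lsm4, shared by both LSm rings, were the ones with no overlap. Lsm4 was at 84.3, 196 and 194 TPM in WT libraries and 302, 229.9 and 250.2 TPM in SMA ones (0.81, limma adjusted p = 0.35, and 0.41 without the 2 libraries of high mitochondrial share). These deposited gene values of Lsm4, and those of Snrnp40, are 2 times the sum of their transcripts in the same deposit, unlike those of the other 31 members, so their levels cannot be set against other genes; summed from transcripts the difference of Lsm4 was 0.80. Lsm2 differed by 0.65 and Lsm3 by 0.50 (adjusted p = 0.35 and 0.36), and Lsm3 by 0.32 without the 2 libraries. Lsm1, found only in the cytoplasmic ring, was at 30, 60.2 and 63.3 TPM in WT libraries and 54.6, 45.1 and 54.7 TPM in SMA ones (0.08, and -0.26 without those 2 libraries). Lsm8, found only in the nuclear ring, was at 28.2, 60.8 and 43.3 and at 64.2, 66.7 and 53.6 TPM (0.53, adjusted p = 0.39, and 0.25 without them). WT and SMA overlapped for both.

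Lsm5 and Lsm6 had negative differences in SMA (-0.34 and -0.21), and WT replicate 1 was their highest WT library. Lsm5 was at 270.1, 124 and 125 TPM in WT libraries and 118, 133 and 129.7 TPM in SMA ones, and its difference was 0.026 without that library. With MW150 it was at 112, 103 and 108 TPM, below SMA and WT without overlap (-0.23 against SMA, adjusted p = 1; -0.58 against WT, adjusted p = 0.50). Lsm6 was at 288, 194 and 164 TPM in WT and reached 339 TPM in SMA+Pifithrin-alpha 3, and its difference in SMA was 0.016 without those 2 libraries. Lsm7 was at 230.4, 479 and 419 TPM in WT libraries and 521, 492 and 471 TPM in SMA ones (0.46, limma adjusted p = 0.45, and 0.14 without those 2 libraries); 64.8% of the 31-base words of Lsm7-201 and 46.3% of those of Lsm5-201 occur in other genes.

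The U7 pair was low and did not differ between WT and SMA beyond the spread of the libraries. Lsm10 was at 12.9, 39.3 and 31.1 TPM in WT libraries and 37.7, 30.3 and 39.3 TPM in SMA ones (0.48, limma adjusted p = 0.56, and 0.023 without the 2 libraries of high mitochondrial share). Lsm11 was at 13.7, 17 and 22.8 TPM in WT libraries and 11.9, 15.3 and 19.9 TPM in SMA ones (-0.17, adjusted p = 0.79, and -0.34 without them). The libraries WT 1 and SMA+Pifithrin-alpha 3 had the lowest Lsm10 levels, 12.9 and 14 TPM.

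All 5 U5-specific genes had positive differences in SMA, with a median of 0.40 and 0 past the test. Snrnp200, whose product Brr2 is the helicase that separates U4 from U6, was at 3.52, 6.05 and 11.1 TPM in WT libraries and 14, 17.5 and 16.4 TPM in SMA ones. With MW150 it was 14.7, 12.7 and 14.2 TPM, with Pifithrin-alpha 16.1, 14 and 7.21 TPM, and with SMN-C3 9.13, 7.63 and 11.1 TPM. Every SMA library was above every WT and every SMN-C3 library. The log2 difference from WT was 1.21 (95% interval 0.44 to 1.99, limma adjusted p = 0.21), and 0.87 without the 2 libraries of high mitochondrial share. With SMN-C3 it was -0.73 against vehicle SMA (95% interval -1.51 to 0.04, adjusted p = 0.61).

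Prpf8, the scaffold of the catalytic centre, was at 8.3, 10.7 and 12.6 TPM in WT libraries and 19.3, 21.8 and 15.3 TPM in SMA ones (0.78, limma adjusted p = 0.35). Eftud2, a GTPase of U5, was at 33.5, 27.7 and 34.8 and at 35.3, 34.4 and 35.7 TPM (0.14, adjusted p = 0.79). Snrnp40 and Prpf6 differed by 0.25 and 0.40, and Snrnp40 by 0.11 without the 2 libraries of high mitochondrial share. With SMN-C3, Eftud2 was at 24.3, 27.3 and 30.1 TPM, below all SMA libraries (-0.36, adjusted p = 0.73).

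Among the U4/U6 and tri-snRNP genes 4 of 5 had positive differences in SMA and 0 passed the test. Prpf3, a partner of Prpf4 on the U4/U6 duplex, was at 3.64, 9.83 and 11.3 TPM in WT libraries and 16.2, 23.8 and 13.4 TPM in SMA ones (1.11, limma adjusted p = 0.30, and 0.67 without the 2 libraries of high mitochondrial share). With MW150 it was 21.5, 21.3 and 27 TPM, against WT a difference of 1.50 (adjusted p = 0.30). SMN-C3 libraries were at 7.73, 10 and 13.7 TPM (-0.71 against SMA, adjusted p = 0.68). The groups given MW150 and SMN-C3 thus lay on either side of vehicle SMA, overlapping it in both cases.

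Prpf31, which bridges U4/U6 and U5, was at 67.8, 74.9 and 65.2 TPM in WT libraries and 113, 87.2 and 113 TPM in SMA ones (0.58, limma adjusted p = 0.31), without overlap. Its coding transcripts alone were at 16.3, 24 and 36.8 TPM in WT and 35.8, 24.3 and 25.5 TPM in SMA, and these overlapped. Snu13, a protein of U4 and of box C/D particles, was at 172, 205 and 212 and at 272, 224 and 245 TPM (0.33, adjusted p = 0.51). A short non-coding transcript, Snu13-204, made up 8.84%, 12% and 7.81% of Snu13 TPM in SMA and was listed at 0 in all 6 libraries given Pifithrin-alpha or SMN-C3, a difference that did not pass the test (adjusted p = 0.40 and 0.26). Prpf4 differed by 0.36. Snrnp27 was the steadiest member, at 122, 118 and 116 TPM in WT libraries and 101, 119.7 and 96.8 TPM in SMA ones (-0.17, adjusted p = 0.67).

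**Figure D5:**
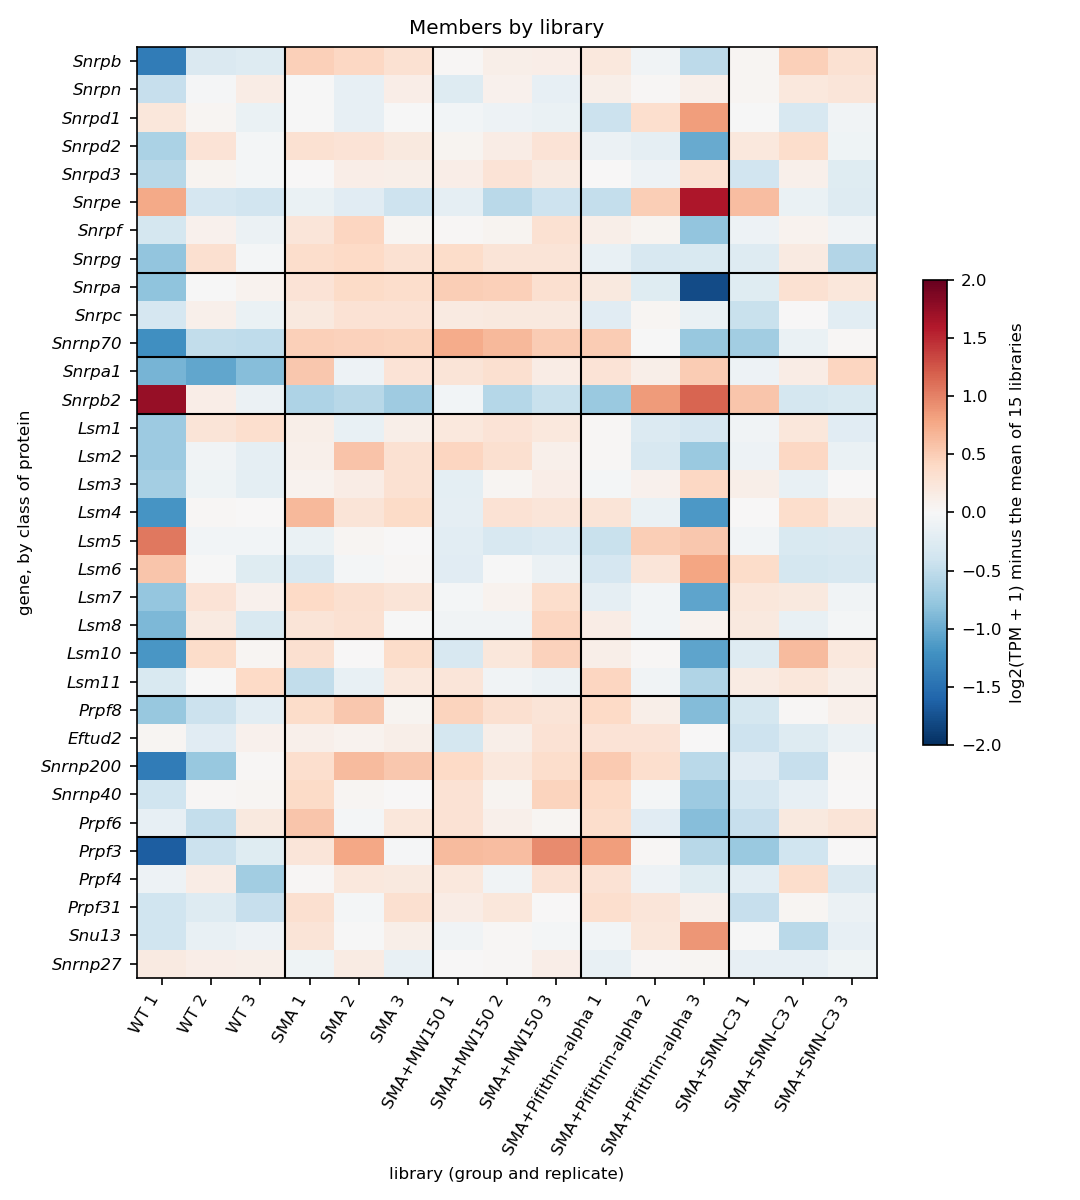
Level of each member (rows, grouped by class) in each of the 15 libraries (columns), as log2(TPM + 1) minus the gene's mean over all libraries, from blue (low) to red (high). Snrpa1 is lowest in the 3 WT columns, and the columns WT 1 and SMA+Pifithrin-alpha 3 share high Snrpe, Snrpb2, Lsm5 and Lsm6 and low Snrpa, Snrnp70, Lsm4, Lsm7 and Lsm10.

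The 3 treatments were then compared with vehicle SMA, which the comparisons share. With MW150, 0 of 33 members passed the test (background 0.00648%) and 0 had an unadjusted p under 0.05 (background 1.9%). The members' median was -0.07 and that of all genes 0.06, and 20 members had negative differences. Snrpd3, Snrnp70 and Lsm1 lay above SMA without overlap (background 7.53%), and Snrpb and Lsm5 below it (background 3.41%). The largest values either way were 0.40 for Prpf3 and -0.31 for Lsm4 and Snrpb.

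With Pifithrin-alpha, 0 members passed the test (background 0.00648%, smallest limma adjusted p = 0.46) and 7 had an unadjusted p under 0.05 (background 10.7%), of which 1 was higher, Snrpb2 (background 3.16%). The median was -0.22 for members and for all genes. Below SMA without overlap lay 7 members (Snrpb, Snrpd2, Snrpg, Snrpa, Snrpc, Lsm2 and Lsm7, background 9.76%) and 0 above (background 5.53%). Direction here followed the scaling: 11 members were higher and 22 lower in TPM as deposited, 16 higher and 17 lower with quantile normalization, 14 higher and 19 lower with mitochondrial genes removed, and 18 higher and 15 lower with median-of-ratios scaling. Against SMA the marker medians were -0.75 for astrocytes, -1.50 for the oligodendrocyte lineage and -1.10 for microglia. They were -1.16 for red blood cells, -0.91 for vascular cells, -0.64 for spinal interneurons and -0.36 for motor neurons. The part of these markers was not tested.

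Several values also moved with SMA+Pifithrin-alpha 3 and WT 1 left out. Snrpa differed by -0.95 and by -0.36 without the 2 libraries of high mitochondrial share, Lsm4 by -0.77 and -0.37, and Lsm7 by -0.75 and -0.44. On the positive side Snrpb2 differed by 1.05 and by 0.68, Snrpe by 0.80 and 0.26, and Lsm6 by 0.35 and 0.07. The members' median without both libraries was -0.08.

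With SMN-C3, 0 members passed the test (background 0.0648%, smallest limma adjusted p = 0.54). An unadjusted p under 0.05 was found for 3 members, Snrnp70, Snrpc and Snrpg, all lower (background 8.53%). In TPM as deposited 28 members were lower and 5 higher, with a median of -0.20 beside -0.23 for all genes, so 17 of the 33 lay above the median gene. With median-of-ratios scaling the counts turned to 12 lower and 21 higher. Quantile normalization gave 22 lower and 11 higher, with 24 of the 33 below the median gene, and removing mitochondrial genes left 28 lower and 5 higher. Against SMA the marker medians were -0.89 for astrocytes, -0.87 for the oligodendrocyte lineage and -0.91 for microglia. They were -1.08 for red blood cells, -0.58 for vascular cells, -0.61 for spinal interneurons and 0.25 for motor neurons. The part of these markers was not tested. Below SMA without overlap lay 6 members (Snrpg, Snrpc, Snrnp70, Lsm7, Eftud2 and Snrnp200, background 18.2%) and 1 above, Snrpb2 (background 2.52%).

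At an unadjusted p under 0.05, 8 members were higher with MW150 than in WT (background 10.2%, and 9.56% for higher alone), 6 with Pifithrin-alpha (5.78% and 4.11%) and 2 with SMN-C3 (7.31% and 2.23%), and 0 were lower. MW150-treated libraries lay above WT without overlap for 13 members (background 17.9%) and below for Lsm5 (background 2%). With Pifithrin-alpha the numbers were 4 above (Snrpa1, Lsm3, Prpf31 and Snu13, background 4.79%) and 1 below, Snrnp27 (background 2.07%). With SMN-C3 they were 2 above, Snrpb and Snrpa1 (background 4.03%), and 1 below, Snrnp27 (background 8.82%). Snrpa1 was in the higher set of each of these comparisons and of SMA against WT, all of which share the WT libraries.

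Genes that act on these proteins were read from lists of the same pathway, beside 0.363% of all genes past the test in SMA, 66.5% positive and a median of 0.24. Among 12 genes of Sm ring assembly, 0 passed the test upward in SMA and 1 downward, the deleted Smn1. Positive differences were found for 10 of the 12, the largest 1.43 for Gemin4, a member of the SMN complex (limma adjusted p = 0.29), and Clns1a, the chaperone pICln that holds Sm proteins before loading, differed by 0.71 (adjusted p = 0.30). Among 10 SF3a and SF3b genes of U2, 9 were positive and 0 passed, with Sf3b5 at 1.02 (adjusted p = 0.22). Among 10 further U5 and tri-snRNP genes, 9 were positive and 0 passed, with Txnl4a, the U5 protein Dim1, at 0.81 (adjusted p = 0.20). At an unadjusted limma p under 0.05, 2 of these 10 were higher and 1 was lower. The SF3a and SF3b genes had 3 higher and 0 lower, and the assembly genes 3 higher and 1 lower, Smn1. For 8 genes of snRNA capping, export and import, 10 mRNA decay partners of LSm1-7 and 6 tested of 7 histone 3′-end processing genes, 0 passed, with medians of -0.02, 0.05 and 0.04. At the same unadjusted level 0, 1 and 0 of these were higher and 0, 0 and 1 lower, beside 13.5% of all genes tested. Gemin4, Clns1a, Sf3b5 and Txnl4a were picked from the positive genes. Their values without the 2 libraries of high mitochondrial share are not given here.

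Promoter sequence was looked at for the 27 members found by symbol in the RefSeq promoter set used (GRCm38.p6, 250 bases before to 50 after the start, both strands). The ETS core CCGGAAG occurred at 10 of 27 (37%), among them Snrnp200, Prpf3, Snrpe and Snrpb2 but not Snrpa1, and at 9.93% of the 27025 genes in that set. Those genes were not limited to expressed ones, whereas every member was expressed, so these shares are not like for like. The motif was chosen after member values were known. These are matches of letters, and no binding was measured.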

How the data were processed

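TPM values per gene and per transcript were deposited by the authors. The submitters' processing notes name kallisto 0.44.0, DESeq2 and the builds GRCm38.p6 and mm10. The deposited values are TPM and not counts, so DESeq2 was not used here. The annotation release and read trimming are not given in the sources used here. Of 118489 transcripts in the deposited table, 116728 matched GENCODE M21, which gave names, classes and coordinates. TPM keeps no depth, so no counting interval was possible. Genes reaching 1 TPM in 3 or more of the 15 libraries were compared on log2(TPM + 1), which understates changes of low genes, with limma 3.58.1 (trend, R 4.3.3) fitted to all 5 groups, for 7 comparisons, with Benjamini-Hochberg adjustment over all 15425 genes of each. Transcript shares of gene TPM were tested likewise. Both steps were tested on simulated data, with a single draw for each setting. Most of the larger simulated gene changes passed. The smaller simulated gene change, itself larger than that of most members, did not pass in its draw, and few of the simulated share changes passed. A miss therefore does not show that a member was unchanged. Of 15364 tested genes matched to transcripts by symbol, 177 (Lsm4 and Snrnp40 among them) hold 2 times their transcripts' summed TPM in the deposited gene table, for a reason not given in the sources used here. Genes given in full are members past any test, the 3 of largest change each way in SMA against WT and in each treatment against SMA, the 3 highest and 3 lowest in level, and the SmB/SmN and U7 pairs; the other members follow by class. Members and lists were chosen with earlier results of these data known. Same-numbered replicates correlated over 0.1 in all 3 pairs only for SMN-C3 against WT (r = 0.29, 0.10 and 0.18), where a replicate block changed no call. A 31-base word counts as shared if it occurs in a transcript of another gene. P-values set each difference against the spread of libraries within groups, pooled over all 5 groups and moderated across genes. The animals behind each library are not named, so that spread cannot be read as variation between animals.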

Additional observations from a re-analysis of the deposited data

How the results depend on the processing

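A set of 14 alternatives and the removal of each library in turn was run for every comparison; coding transcripts only and gene levels summed from transcripts were chosen after seeing the data, and the second kept every count of members past the test. In SMA against WT the count of members past the test was 1 as reported, 0 with median-of-ratios scaling, with mitochondrial genes removed, with quantile normalization, with the replicate block and with a fit of only the groups compared, and 3 with array weights, whose estimation stopped before converging. For MW150 against WT (0 as reported) it was 1 with a pseudocount of 0.1 or 0.5, with a mean of at least 5 TPM and with coding transcripts only, 2 with mitochondrial share as a term and without the 2 libraries of highest mitochondrial share, and 3 with array weights. For Pifithrin-alpha against WT (1) it was 0 without a filter, with median-of-ratios scaling, with the replicate block, without those 2 libraries and in the fit of only the groups compared, and 12 with array weights, which also gave 13 for Pifithrin-alpha against SMA (0 as reported); with array weights 24.4% and 33.4% of all genes passed in these comparisons, 1.05% in SMA and 1.61% in MW150 against WT. For SMN-C3 against WT (0) it was 1 with mitochondrial share as a term, array weights or coding transcripts only. Leaving out 1 library gave 0 to 1 for SMA against WT and 0 to 0 for Pifithrin-alpha against WT. The cause of these moves was not tested.

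The members' median moved with median-of-ratios scaling to 0.14 (SMA against WT), -0.15 (MW150 against SMA), 0.036 (Pifithrin-alpha against SMA), 0.040 (SMN-C3 against SMA) and -0.018 (MW150 against WT), with quantile normalization to -0.052 (Pifithrin-alpha) and -0.12 (SMN-C3 against SMA), and with mitochondrial share as a term to -0.024 (Pifithrin-alpha against SMA). Counts of member transcripts whose share passed, 1 in each comparison with WT, were 0 on the arcsine scale for MW150 and Pifithrin-alpha, 0 with the replicate block for Pifithrin-alpha and 2 for SMA with at least 5 TPM a transcript; leaving out 1 library gave 1 to 2 for SMA, Pifithrin-alpha and SMN-C3 and 0 to 2 for MW150. Signs turned, with no value past the test, for Lsm5 in SMA (0.13 with mitochondrial share as a term, 0.026 without WT replicate 1 or the 2 libraries, and -0.53 to 0.026 over single libraries left out), Snrpe in SMA (0.45, 0.10 and, with array weights, 0.013, and -0.46 to 0.10 over single libraries left out), Lsm6 with Pifithrin-alpha (-0.13) and, without the 2 libraries, Snrpn (-0.079), Lsm1 (-0.26) and Lsm6 (0.016) in SMA, among 28 turned signs of members over the 7 comparisons, and the Snrpa1-206 share between SMN-C3 and SMA (-0.00039 on the arcsine scale, and -0.35, -0.18 and -0.15 points without SMA replicate 1, SMA replicate 2 or SMN-C3 replicate 1, up to 0.80 points without SMA replicate 3).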
